A study of Homo sapiens with 4 samples.

Results

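Keratins are the intermediate filament proteins of epithelial cells. Each filament is built from obligate pairs of an acidic type I and a basic type II chain, and the chains in use change with the kind of epithelium and its state. In squamous epithelium KRT5 and KRT14 mark the basal layer, KRT4 and KRT13 the differentiated layers of mucosa such as the esophagus, and KRT1 and KRT10 those of the epidermis. KRT6, KRT16 and KRT17 appear in wounded or rapidly dividing squamous cells, and KRT8 and KRT18 are the pair of simple epithelia.

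The keratin genes were taken by name: every probe set of the array annotated with exactly 1 gene symbol made of KRT, a number and at most a letter A to C. This gave 44 genes with 56 probe sets, out of 19775 genes with 41091 probe sets in the whole series. RNA came from KYSE410, an established line of human esophageal squamous cell carcinoma, kept in RPMI medium with serum. There were 2 untreated arrays and 2 arrays of cells given 20 nM YM155 for 6 h, a compound known as a blocker of survivin expression. One protocol field of the labels names 10 mM cisplatin for 12 h, but the treatment labels and source names give YM155, which is used here. The cells are 1 line, and the labels do not say whether the replicates came from separate cultures, so the spread behind each p-value may be technical. The titles of the treated arrays carry the codes B1 and B2, which the untreated titles lack, and no meaning was read into them.

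Values are log2 of the deposited array signal. A probe set passed the filter on dim signals when its mean over the 4 arrays was at least 3.32, the 40th percentile of all probe sets, and each gene was represented by its brightest probe set. This left 24 keratin genes, and 20 keratin genes lay below the filter. Signals of different probe sets depend on their probes and do not rank RNA amounts between genes. The untreated arrays were further apart than the YM155 arrays, with a median gap per gene of 0.23 against 0.12 over all genes tested and 0.19 against 0.12 over the keratins. Between arrays, the median gap over all genes was 0.17 and 0.22 from untreated replicate 1 to the YM155 arrays, and 0.23 and 0.26 from untreated replicate 2. Of 9 squamous markers, 8 were tested (TP63 was not analysed here), the brightest being S100A2 (12.37 to 13.05) and KRT5. Of these 8, 6 had positive differences (47.1% of all genes) and 4 had YM155 arrays above both untreated arrays (19.3% of all genes), with a median of 0.33 against −0.015 over all genes. KRT5 and KRT14, which are on this list too, were among those 4 beside SERPINB5 and DSG3, and the markers' part in the keratin differences was not tested. Of the markers of other cells, 3 of 8 glandular, 4 of 7 fibroblast, 1 of 5 leukocyte and 2 of 4 endothelial genes had a probe set above the filter. The brightest were MUC5AC (4.43 to 4.67) and CDX2 (3.99 to 4.06) for gland, VIM (6.80 to 7.96) and COL1A1 (6.08 to 6.24) for fibroblasts, CD3E (3.39 to 4.06) for leukocytes, and PECAM1 (4.12 to 4.45) and VWF (3.78 to 4.01) for endothelium.

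The bases just before the transcription start are shown for 6 of the keratin genes compared below, which show genes of both kinds of outcome. KRT5 and the dim KRT9, KRT73 and KRT75 had YM155 arrays above both untreated arrays, and KRT8 and KRT10 were bright genes whose arrays overlapped. Each line gives 100 bases ending at the base before the start, 5′ to 3′ on the gene's own strand, from RefSeq promoters of GRCh38.p14, all on the minus strand. Capitals mark ATAAA, the core letters of a TATA box, within the last 50 bases, and GGGCGG, the letters of a GC box, read on either strand.
KRT5 (chr12:52520395-52520494): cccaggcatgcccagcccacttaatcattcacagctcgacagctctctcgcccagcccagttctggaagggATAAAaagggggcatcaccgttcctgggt
KRT9 (chr17:41572060-41572159): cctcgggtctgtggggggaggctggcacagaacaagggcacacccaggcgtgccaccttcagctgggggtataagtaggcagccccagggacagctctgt
KRT73 (chr12:52618560-52618659): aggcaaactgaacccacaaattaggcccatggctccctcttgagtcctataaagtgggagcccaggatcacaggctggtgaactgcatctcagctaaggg
KRT75 (chr12:52434372-52434471): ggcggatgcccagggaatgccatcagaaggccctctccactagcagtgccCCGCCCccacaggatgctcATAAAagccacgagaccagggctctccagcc
KRT8 (chr12:52926470-52926569): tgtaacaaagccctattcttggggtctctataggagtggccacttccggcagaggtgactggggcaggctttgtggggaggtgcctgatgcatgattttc
KRT10 (chr17:40822615-40822714): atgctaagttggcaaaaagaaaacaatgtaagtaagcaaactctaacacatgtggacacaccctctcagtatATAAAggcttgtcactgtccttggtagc

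A promoter was matched by symbol for 29 of the 44 keratin genes. Those of KRT13, KRT14, KRT15, KRT16 and KRT18 were not among them. ATAAA, searched on both strands of the last 50 bases, was found in 22 of 29 keratin promoters (75.9%), against 9.8% of 27305 promoters of all genes. In KRT5, KRT75 and KRT10 it began 29, 31 and 28 bases before the start. GGGCGG, on either strand of the last 250 bases, was found in 4 of the 29 (13.8%), against 42.3% of all promoters. TGANTCA, the letters bound by AP-1 factors, was in 0 of the 29 windows of 250 bases, against 6.6% of all. These are matches of letters only. KRT8, KRT9 and KRT73 had no ATAAA in the last 50 bases. In KRT73 the letters lay just outside that window, and KRT9 held the similar letters TATAAG inside it. Their counting as absent thus depends on the letters and window chosen.

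In KYSE410 cells the bright keratin probe sets included simple, basal and differentiation keratins. Both partners of simple epithelium were bright. KRT18 read 12.80 and 12.97 without drug and 12.91 and 12.68 with YM155, and KRT8 read 11.46 and 11.84 against 11.83 and 11.44. The basal keratins KRT5 (10.86 and 10.74 in untreated arrays), KRT15 (10.05 and 10.31) and KRT14 (8.38 and 8.99) were bright as well. Among differentiation keratins, KRT10 read 9.81 and 9.55, KRT80, a keratin of several differentiating epithelia, 8.31 and 7.52, and the mucosal KRT13 7.98 and 7.60. KRT16 was modest, at 4.69 and 4.83. The probe sets of KRT8, KRT18 and KRT10 carry the suffix of probes that can also match other transcripts, and KRT8 and KRT18 have many processed pseudogenes. Those of KRT13, KRT7 and KRT4 carry the suffix _s_at, which an alternative fit below left out too.

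Some partners and other simple keratins were dim. KRT4, the partner of KRT13, read 4.34 and 4.53 without drug, and a second, dimmer KRT4 probe set 2.998 and 2.991. KRT1, the partner of KRT10, lay below the filter at 3.16 and 2.91. KRT19, a simple keratin that lacks the usual tail, lay below the filter in both its probe sets, between 2.46 and 2.88 over the 4 arrays. KRT7, another simple keratin, read 6.92 and 5.90 in its brightest probe set. KRT20 of the gut and urothelium (1.96 to 2.37) and KRT23 (2.003 to 2.36) were dim in all arrays. KRT6A, KRT6B, KRT6C and KRT17 were not analysed here, so KRT16 is the stress keratin measured.

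**Figure D1:**
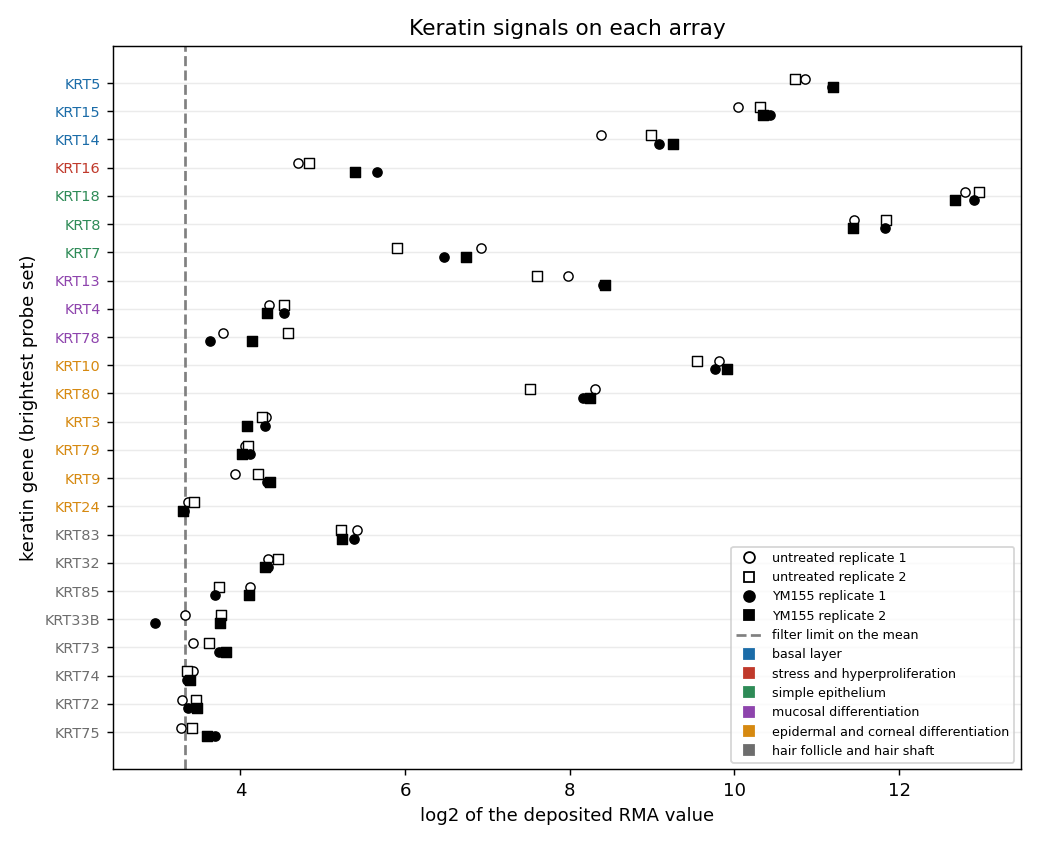
Log2 array signal (horizontal axis) of the brightest probe set of each of the 24 keratin genes that passed the filter, 1 point per array: open symbols are untreated and filled symbols YM155 arrays, circles replicate 1 and squares replicate 2. Gene names are coloured by group, and the dashed line is the filter limit of 3.32; KRT18, KRT8, KRT5 and KRT15 lie above 10, and most hair keratins lie near the limit.

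After YM155, the keratins of the basal layer, KRT16 and KRT13 had higher values on both treated arrays than on both untreated arrays, whereas the arrays of KRT8 and KRT18 overlapped. KRT16 had the largest difference, 0.76 ± 0.15 log2 (SE), or 1.70-fold, followed by KRT13 at 0.62 ± 0.17 (1.54-fold). In RNA of whole cultures, more or fewer cells of a type and more or less RNA per cell cannot be told apart. No keratin gene passed the threshold. Limma, adjusted over 14043 genes, called 0 keratins and 0 genes of all (0%), and the smallest adjusted p of a keratin was 0.232, that of KRT16. At an unadjusted limma p under 0.05, 3 of 24 keratins (12.5%) were counted: KRT16, KRT13 and KRT5, whose limma adjusted p were 0.232, 0.289 and 0.335. Over all genes the same count gave 12.7%, so the share of keratins was near the background. All 3 were higher in YM155 arrays, where 5.23% of all genes were both higher and under that p. For 8 keratins each YM155 array exceeded each untreated array (33.3%, against 19.3% of all genes), and for 1 each lay below (4.2%, against 25.6%).

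KRT16, the type I stress keratin of wounded and hyperproliferative epidermis, read 4.69 and 4.83 without drug and 5.65 and 5.40 with YM155. Both treated arrays stood above both untreated ones, and the difference between the groups exceeded the gap within either group. The means were 4.76 ± 0.10 (SD, n = 2) and 5.53 ± 0.18 (SD, n = 2). With any array left out the difference stayed between 0.63 and 0.89. KRT16 has close relatives and pseudogenes in the genome, and how much signal they share with its probe set was not tested.

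KRT13, the type I keratin of differentiating mucosa, read 7.98 and 7.60 without drug and 8.40 and 8.43 with YM155. Its means were 7.79 ± 0.26 and 8.41 ± 0.020 (SD, n = 2 each; limma adjusted p = 0.289). The treated arrays nearly coincided and lay above both untreated arrays. The difference was 0.44 against untreated replicate 1 and 0.81 against untreated replicate 2. Without untreated replicate 1 the limma adjusted p of KRT13 was 0.0453, and it was the 1 keratin called, among 1125 genes of all (8.01%). KRT4, its type II partner, read 4.34 and 4.53 without drug and 4.53 and 4.32 with YM155, a difference of −0.013 ± 0.15 (SE). KRT78, a type II keratin found in differentiated stratified epithelium, read 3.79 and 4.57 against 3.63 and 4.14, and its groups overlapped (−0.30 ± 0.33). KRT76, of the oral palate and gum, was below the filter at 2.53 to 2.86. Of the mucosal group, 1 of 3 tested members was positive.

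The 3 basal keratins all had positive differences without overlap of the arrays. Over all genes 47.1% were positive, and 19.3% had both YM155 arrays above both untreated arrays. KRT5, the type II chain, read 10.86 and 10.74 without drug and 11.19 and 11.19 with YM155. The treated arrays were 0.0030 log2 apart, and the difference of 0.39 ± 0.13 (SE; limma adjusted p = 0.335) was 1.31-fold. Its partner KRT14 read 8.38 and 8.99 against 9.09 and 9.26, a difference of 0.49 ± 0.24. The untreated arrays of KRT14 were 0.61 apart, more than the difference itself, which was 0.79 against replicate 1 and 0.18 against replicate 2. KRT15, a type I basal keratin without a fixed partner, read 10.05 and 10.31 against 10.44 and 10.35, a difference of 0.21 ± 0.15. Its higher untreated array lay 0.080 below the YM155 mean, so that gene's groups were separated by little.

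Of the simple keratins, 1 of 3 tested had a positive difference. KRT18 stood at −0.087 ± 0.15 log2 (SE; limma adjusted p = 0.867) and KRT8 at −0.011 ± 0.21 (adjusted p = 0.993). Within each group KRT8 and KRT18 were read low and high on the same arrays: in untreated replicate 2 and YM155 replicate 1 both were at their group's higher value. KRT7 read 6.92 and 5.90 without drug and 6.47 and 6.73 with YM155, which lay between them. Its untreated arrays were 1.02 apart, and the difference changed from −0.32 against replicate 1 to 0.70 against replicate 2. Another KRT7 probe set above the filter read 4.71 and 4.57 against 4.87 and 4.93, a positive difference of 0.26 without overlap. A dimmer one, below the filter, stood at 0.36, and the dimmest at 0.012.

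**Figure D2:**
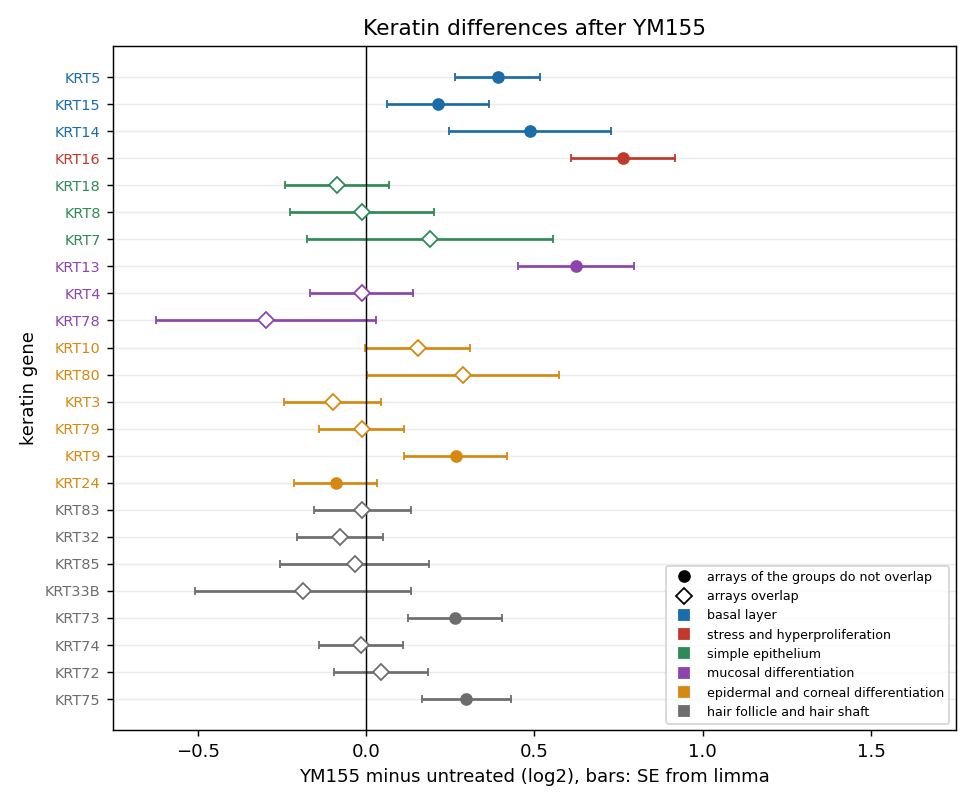
YM155 minus untreated (log2, horizontal axis) for the 24 keratin genes, each with its SE from limma over 2 arrays a group; filled circles are genes whose arrays did not overlap between the groups, open diamonds genes whose arrays did. KRT16 and KRT13 stand farthest to the right at 0.76 and 0.62, the 3 basal keratins lie between 0.21 and 0.49, and KRT8 and KRT18 lie at −0.011 and −0.087.

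Keratins of epidermal and corneal differentiation had a median difference of 0.070. KRT10, the suprabasal type I keratin, read 9.81 and 9.55 without drug and 9.76 and 9.90 with YM155, with overlap. Its 3 probe sets gave 0.15, 0.14 and 0.13. KRT80 read 8.31 and 7.52 against 8.16 and 8.25, and its difference of 0.29 ± 0.29 (SE) came with untreated arrays 0.79 apart. KRT9, the keratin of palm and sole skin, read 3.93 and 4.22 against 4.32 and 4.36 (0.27 ± 0.15), without overlap but from a dim probe set. KRT3 of the cornea (−0.099 ± 0.14) and KRT79 of the hair follicle duct (−0.013 ± 0.13) were dim too. Among the tested keratins, KRT24 was the 1 with both YM155 arrays below both untreated arrays. It read 3.32 and 3.30 against 3.36 and 3.43, a difference of −0.090 at the filter's limit. KRT1, KRT2, KRT12 and KRT77 lay below the filter, between 1.65 and 3.16.

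Hair follicle and hair shaft keratins were read at low signals. Of 19 genes with a probe set, 11 lay below the filter, between 1.54 and 3.14: KRT25, KRT27, KRT31, KRT33A, KRT35, KRT36, KRT37, KRT38, KRT40, KRT71 and KRT84. The 8 tested had a median difference of −0.013. KRT83, a hair shaft keratin, was the brightest at 5.41 and 5.22 without drug and 5.38 and 5.23 with YM155 (−0.011 ± 0.14 SE). KRT75 of the follicle's companion layer read 3.28 and 3.42 against 3.70 and 3.60 (0.30 ± 0.13; limma adjusted p = 0.449), and KRT73 of the inner root sheath 3.42 and 3.62 against 3.73 and 3.83 (0.26 ± 0.14). Both were without overlap and close to the filter's limit, and a second KRT73 probe set below the filter gave −0.024. KRT32 (−0.078), KRT33B (−0.19), KRT72 (0.045), KRT74 (−0.014) and KRT85 (−0.033) had arrays that overlapped. The 29 keratin probe sets below the filter, KRT222 included, ran from 1.54 to 3.18 with differences from −0.27 to 0.36, and their order carries no meaning at these signals.

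Over the 24 tested genes, 12 keratins had positive and 12 negative differences (47.1% of all genes were positive). Their median was 0.017 log2, against −0.015 over all genes, and none reached 1 log2 in size. That median was not stable: it was 0.21 over the 11 keratins kept by a filter at the 60th percentile (−0.029 over all genes kept). Of those 11, 8 were positive (45.4% of all genes kept). With single arrays left out, the median of the 24 ran from 0.055 to 0.17. The larger of the within-group gaps exceeded the size of the difference in 18 of the 24. For 11 keratins the sign held with each of the 4 arrays left out, 9 of them positive: KRT5, KRT9, KRT10, KRT13, KRT14, KRT15, KRT16, KRT73 and KRT75. KRT24 and KRT32 were the 2 negative ones.

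The keratins with an unadjusted limma p under 0.05 depended on the arrays used. Without untreated replicate 2, 8 were counted: KRT5, KRT9, KRT13, KRT14, KRT15, KRT16, KRT73 and KRT75 (background 21.8% of genes). Without untreated replicate 1 there were 5: KRT5, KRT7, KRT13, KRT16 and KRT80 (background 31.5%). KRT7 and KRT80 stood at 0.70 and 0.68 there, but at −0.32 and −0.11 without untreated replicate 2. Without YM155 replicate 2 KRT16 alone was counted (background 3.17%), and without YM155 replicate 1 limma, the one tool run, counted 0 (background 4.37%). These 4 fits share arrays, and those without an untreated array take their spread from the same YM155 arrays, so their counts are not independent. Over the 4 fits the difference ran from 0.63 to 0.89 for KRT16, 0.44 to 0.81 for KRT13 and 0.33 to 0.45 for KRT5.

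**Figure D3:**
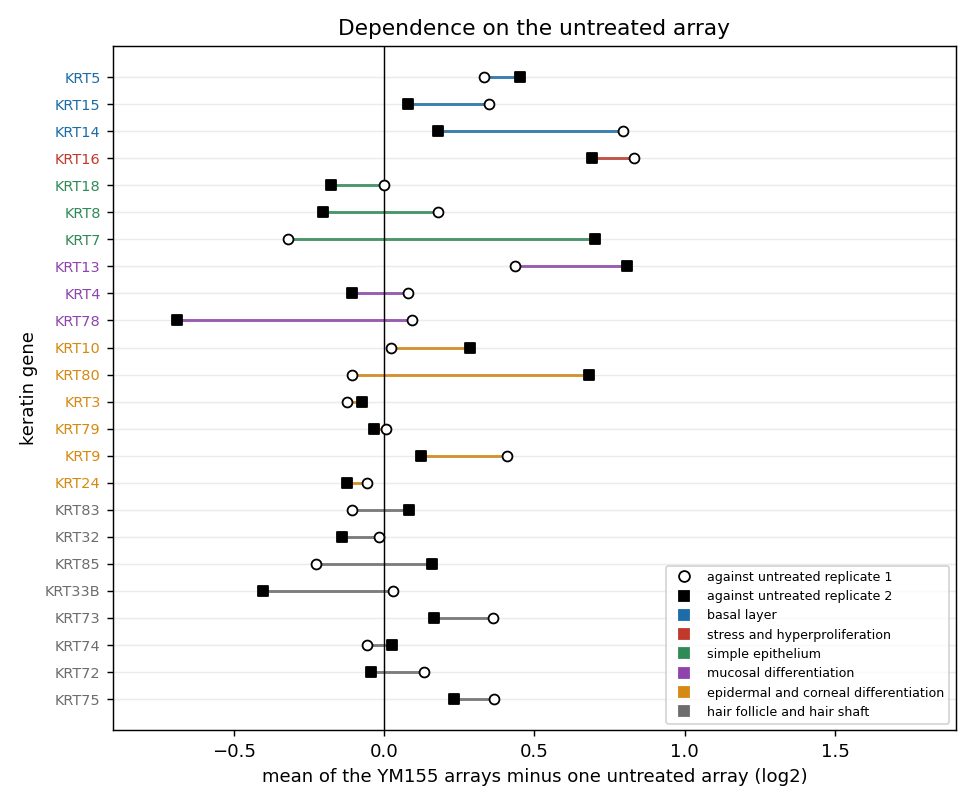
Mean of the 2 YM155 arrays minus each untreated array (log2, horizontal axis) for the 24 keratin genes: open circles are against untreated replicate 1, filled squares against untreated replicate 2, and the line joins them. KRT16, KRT13 and KRT5 stay to the right of 0 against either array, while the lines of KRT7, KRT80 and KRT8 cross 0.

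Genes that anchor or bundle keratin filaments were compared next. Of 17 listed, 16 were tested, and 14 had positive and 2 negative differences (47.1% of all genes were positive). Their median was 0.29 log2 against −0.015 over all genes. At an unadjusted limma p under 0.05, 5 were counted, all higher, and none passed after adjustment. Over all genes 12.7% were counted in either direction and 5.23% were counted as higher. EPPK1, which encodes epiplakin, a keratin bundling protein, read 5.97 and 6.07 without drug and 7.04 and 6.997 with YM155, which put it 1.001 ± 0.13 higher (SE; limma adjusted p = 0.163). Of its other probe sets, 2 gave 0.77 and 1.08, and the dimmest 2 gave 0.028 and −0.25. PLEC, encoding plectin, which links keratin to hemidesmosomes, stood at 0.65 ± 0.22, the desmosomal cadherin gene DSG3 at 0.61 ± 0.30 and JUP, encoding plakoglobin, at 0.58 ± 0.17. All 4 had YM155 arrays above both untreated arrays, as had 9 of the 16 (19.3% of all genes). MACF1, encoding a cytoskeletal cross-linker, was the 1 anchor with both YM155 arrays below (25.6% of all genes), at −0.31 ± 0.14. The DSG3 difference was 0.20 without untreated replicate 2 and 1.02 without untreated replicate 1, and that of PLEC 0.37 and 0.93.

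Among 16 other intermediate filament genes, 12 were tested, with 5 positive and 7 negative differences and a median of −0.11. Over all genes 47.1% were positive and the median was −0.015. BFSP1, a filament protein of the eye lens, read 5.21 and 6.19 without drug and 6.82 and 7.28 with YM155 (1.35 ± 0.37 SE; limma adjusted p = 0.29). It was the 1 gene of this list with YM155 arrays above both untreated ones (19.3% of all genes). For 3 genes of the list both YM155 arrays lay below (25.6% of all genes). The BFSP1 difference was 0.86 without untreated replicate 1 and 1.84 without untreated replicate 2. SYNM, encoding synemin, stood at −0.39 ± 0.13 and NES, encoding nestin, at −0.38 ± 0.13, both without overlap; NES was dim and its second probe set gave 0.24. VIM, the mesenchymal filament gene, read 6.80 and 7.96 against 7.14 and 7.06, with overlap, at −0.28 ± 0.40. At an unadjusted limma p under 0.05, 3 genes of this list were counted, BFSP1 higher and SYNM and NES lower, where 12.7% of all genes were counted in either direction.

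The third list held genes of keratin chaperones, modifiers and turnover, of which 8 of 9 were tested. There were 6 positive and 2 negative differences (47.1% of all genes were positive), with a median of 0.16 against −0.015 over all genes. DNAJB6, encoding a cochaperone that binds KRT18, read 8.44 and 6.95 without drug and 8.63 and 8.66 with YM155, a difference of 0.95 ± 0.50 (SE) that was 0.20 without untreated replicate 2. SFN, encoding 14-3-3 sigma, read 12.25 and 12.74 against 13.15 and 13.19 (0.68 ± 0.20; limma adjusted p = 0.315), and its other probe sets gave 0.81 and 1.24. Without untreated replicate 1 the SFN difference was 0.43. FAM83H, which takes part in keratin organisation, read 8.81 and 8.35 against 8.91 and 8.92 (0.33 ± 0.19), and its difference was 0.10 without untreated replicate 2. TCHP, encoding the keratin-binding trichoplein, read 8.04 and 6.94 against 7.67 and 7.71, with overlap. Its difference of 0.20 ± 0.38 turned to −0.35 without untreated replicate 2. SFN was the 1 gene of the 8 under an unadjusted limma p of 0.05, a share near the 12.7% of all genes.

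**Figure D4:**
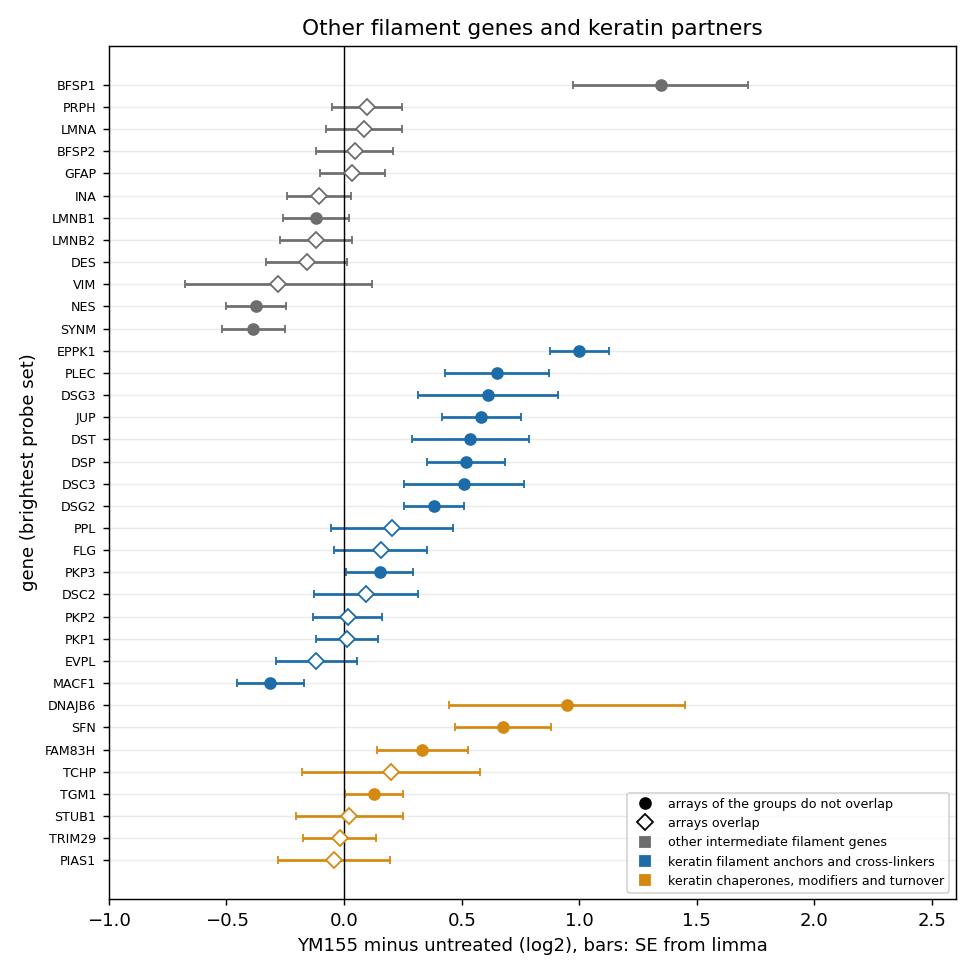
YM155 minus untreated (log2, horizontal axis) with the SE from limma over 2 arrays a group, for tested genes of other intermediate filaments (grey), keratin anchors and cross-linkers (blue) and keratin chaperones, modifiers and turnover (orange); filled circles mark genes whose arrays did not overlap. BFSP1 stands highest at 1.35, EPPK1 leads the anchors at 1.001, and MACF1 is the anchor farthest below 0.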

How the data were processed

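Biotinylated cRNA of KYSE410 cells was read on Affymetrix 3' arrays (input 200 ng, per the labels' protocols). The authors deposited an intensity for every probe set on each array, computed by RMA per the submitters' processing notes; RMA's version and settings were not given in the sources used here. The intensity values ran from 2.42 to 15214 with array medians of 16 to 16.3, so they were linear and log2 was taken. RMA sets arrays to a common distribution, so differences are relative to the rest of the array. The table held 54675 probe sets, of which 62 controls were left out; 41091 had 1 gene symbol, 1801 several and 11721 none. All 56 keratin probe sets matched a RefSeq gene ID. Of the probe sets, 32768 passed the filter at the 40th percentile.

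Groups were compared with limma 3.58.1 (R 4.3.3) through lmFit and eBayes, with no term beside group, two-sided. P-values of 14043 genes were adjusted by Benjamini-Hochberg and read at 0.05. The limma step was tested on simulated data beforehand, with limits on the mean estimates and the false calls. No share of the planted changes had to be recovered, so passing says nothing about power. The number of arrays limits the precision. Keratins, groups and lists were chosen with earlier results of these data known, so no list was tested as a set. The text names each keratin above the filter, the 4 members of largest absolute difference of each partner list and 2 markers, the brightest, for each cell type; SERPINB5 and MACF1 were named after their values were seen.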

Additional observations from a re-analysis of the deposited data

Results flagged for a closer look

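Outside the keratin members, 2 probe sets annotated with a keratin name had both YM155 arrays above both untreated arrays, and no comparison above used them. One is annotated with both KRT34 and LOC100653049 and so names no gene. It read 2.56 and 2.93 log2 without drug and 4.05 and 4.05 with YM155, a difference of 1.31, from a signal below the filter's limit of 3.32 in the untreated arrays. The other is annotated with the pseudogene KRT8P12. It read 3.66 and 4.04 without drug and 4.50 and 4.62 with YM155, a difference of 0.71, while the brighter KRT8P12 probe set gave −0.065.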

How the results depend on the processing

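Over the alternatives that kept all 4 arrays (no filter, a stricter filter at the 60th percentile, probe sets averaged per gene, no _x_at or _s_at probe sets, a second quantile normalization, median centring, eBayes with trend and robust, all probe sets one by one, and the replicate block), limma called 0 genes. Of 198 keratin differences recomputed there, 197 kept their sign, and KRT83 turned to 0.023 under the second quantile normalization. Most of these signs could not turn. The filters, the eBayes options, the replicate block and the one-by-one fit leave the difference of a probe set unchanged. Without a filter, 25 of 44 keratins were positive, against 49.6% of all genes. The keratin median was 0.21 with the filter at the 60th percentile, which kept 11 keratins, and 0.13 over the 27 probe sets tested one by one. Deviations of arrays with the same replicate number did not correlate over the genes (0.00036), which cannot settle whether the arrays were paired. With the replicate block 2 keratins, not 3, lay under an unadjusted limma p of 0.05. The count was also 2 without _x_at or _s_at probe sets, where KRT13 had no probe set left.

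When single arrays were left out, the genes called ran from 0 to 1125, the keratins under an unadjusted p of 0.05 from 0 to 8 and the keratin median from 0.055 to 0.17. A lone array of a group was assumed to vary like the other group. The sign turned for 13 keratins. KRT18 ran from −0.20 to 0.029, KRT8 from −0.20 to 0.18, KRT7 from −0.32 to 0.70 and KRT80 from −0.11 to 0.68. KRT4 ran from −0.12 to 0.094, KRT78 from −0.69 to 0.094, KRT3 from −0.21 to 0.014 and KRT79 from −0.065 to 0.038. KRT83 ran from −0.11 to 0.084, KRT85 from −0.24 to 0.18, KRT33B from −0.59 to 0.21, KRT74 from −0.055 to 0.027 and KRT72 from −0.042 to 0.13. Causes were not tested. Probe sets near the filter's limit have no detection call here, which limits what their differences show.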
